A study of Mus musculus with 6 samples.

Results

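The transcription factors of the epithelial-mesenchymal transition (EMT) were followed in RM-1, a prostate cancer line from the mouse, in cells that carried a lentivirus for Bhlhe22 or an empty lentivirus. The 10 genes were taken by name from the 55487 genes of the deposited table. They are the SNAIL factors Snai1, Snai2 and Snai3, the ZEB factors Zeb1 and Zeb2, the TWIST factors Twist1 and Twist2, the homeobox factor Prrx1, and the epithelial factors Grhl2 and Ovol1. Of these, 9 passed the filter on low counts and were tested, and Ovol1 did not. The samples were 3 libraries of cells with the blank vector (RM-1-Vector, called vector cells) and 3 of cells with the Bhlhe22 lentivirus (RM-1-Bhlhe22, called Bhlhe22 cells). Both groups are the same cultured cell line, and both carry a lentivirus, so the insert is the labelled difference. The labels name no promoter for the insert and do not say whether the cells are a clone or a pool. They also do not say whether replicates were separate cultures, so p-values measure only the spread between these samples, part or all of which may be technical.

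EMT is a change in which epithelial cells lose their junctions and polarity and take on the migratory form of mesenchymal cells. The SNAIL and ZEB proteins are zinc finger repressors that bind E-boxes in the promoters of junction genes such as Cdh1, which encodes E-cadherin, while TWIST proteins are basic helix-loop-helix factors that pair with E proteins. Grhl2 activates junction genes and stands in mutual repression with Zeb1, and Ovol1 represses mesenchymal factors. Bhlhe22 is itself a basic helix-loop-helix factor, known from neurons, that binds E-boxes.

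The libraries held between 15464709 and 25129552 counts. Bhlhe22 replicate 1 stood apart from its group: across genes, its log2 CPM correlated at 0.979 and 0.977 with the other 2 Bhlhe22 libraries, against 0.987 to 0.989 (Pearson's r) for the other pairs within a group. Without it 4682 genes were called in place of 2881, so counts are also given without it. Bhlhe22 had 0 counts in every vector library and 572, 764 and 717 CPM in Bhlhe22 replicates 1, 2 and 3, or 684 ± 99.9 CPM (CPM is counts scaled to a common library size with TMM factors; SD, n = 3), as the labels say. Of 11 prostate luminal and basal markers, Krt8 and Krt18 were expressed and the other 9 failed the filter, with 0 counts in all 6 libraries for Hoxb13, Pbsn and Krt5, among others. The summed level of the 11 was 1377 to 1445 CPM in vector and 1125 to 1339 CPM in Bhlhe22 cells. Of 15 leukocyte, endothelial and fibroblast markers, 6 passed the filter, and the leukocyte genes Cd3e, Itgam and Adgre1 had 0 counts throughout. The integrin gene Itgb1, a mesenchymal marker below, also had 0 counts throughout, while the integrin gene Itga5 stood at 340 CPM in vector and 320 CPM in Bhlhe22 cells. Whether 0 counts in the deposited data mean absent RNA was not tested. The 15 leukocyte, endothelial and fibroblast markers summed to 790 to 830 CPM in vector and 683 to 768 CPM in Bhlhe22 cells. Most of that sum was the collagen gene Col3a1, with means of 754 CPM in vector and 669 CPM in Bhlhe22 cells. Col3a1 and Pdgfrb are also counted among the mesenchymal markers below. The part of these markers in the results below was not tested.

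Snai2 rose and Grhl2 fell in Bhlhe22 cells, and the other 7 tested factors did not pass the test. Snai2, the gene of the repressor SLUG, was 3.64-fold higher, and Grhl2 was 1.57-fold lower. In bulk RNA, a change in the number of expressing cells and a change in RNA per cell cannot be told apart. The test was edgeR's quasi-likelihood test over 14663 genes with Benjamini-Hochberg adjustment at 0.05, which called 19.6% of all genes tested, 10.4% higher and 9.28% lower. The 2 factors called of 9 are 22.2%, a share near that background, and the same counts, 1 higher and 1 lower, were found without Bhlhe22 replicate 1. The median log2 fold change of the 9 was 0.04, beside 0.01 over all genes tested. Snai2 and Grhl2 were also the factors whose 3 values in one group all lay outside the range of the other, which held for 40.8% of all genes tested.

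**Figure D1:**
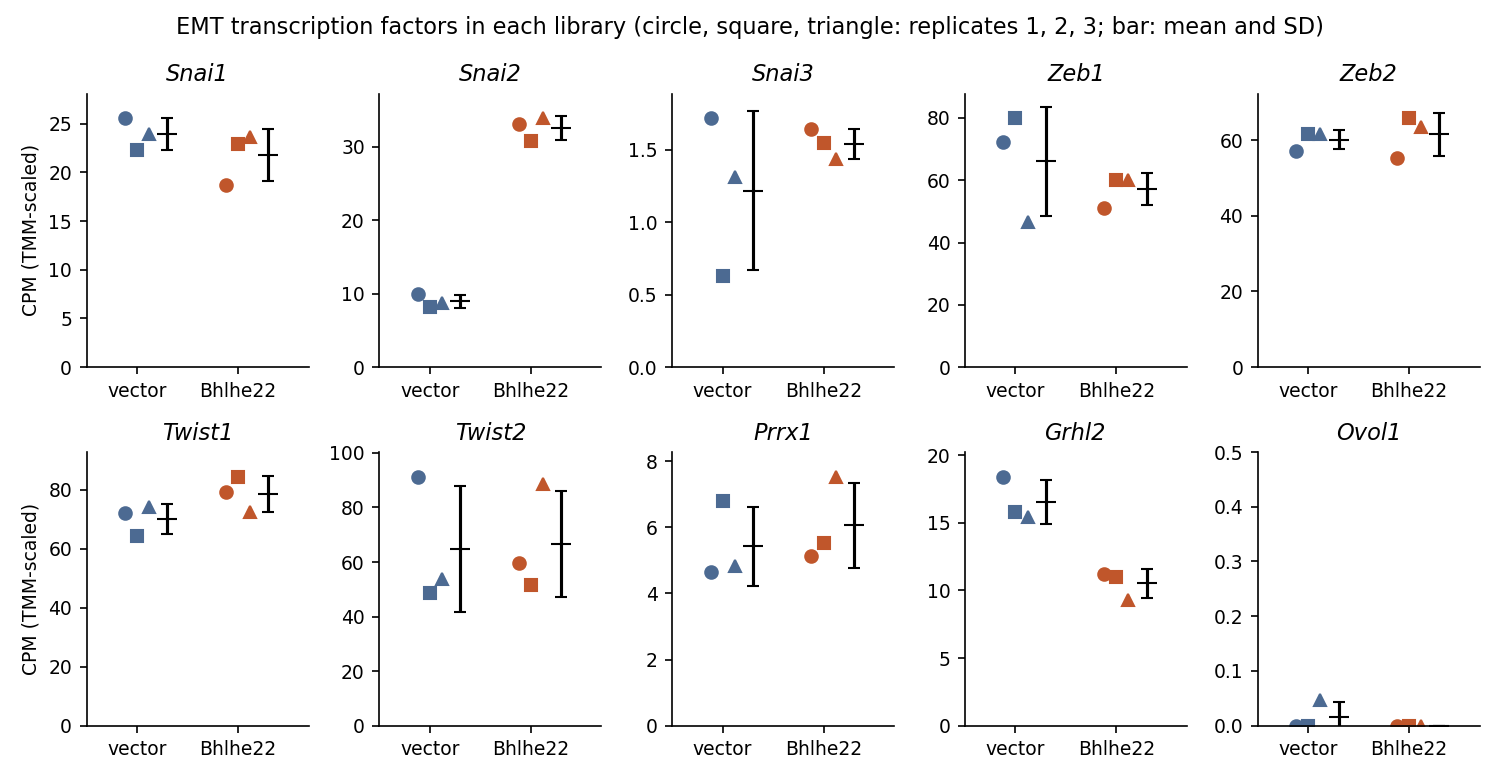
Level of each of the 10 factors in every library, in CPM on an axis that starts at 0 and differs between panels. Circles, squares and triangles are replicates 1, 2 and 3, and the bar beside them is the mean with its SD (n = 3). Snai2 lies between 8.16 and 9.97 CPM in vector and between 30.8 and 33.9 CPM in Bhlhe22 cells, while Twist2 is high in 1 library of each group.

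Snai2 (ENSMUSG00000022676) is a plus-strand gene at 14705852 to 14709385 of chromosome 16 in GRCm38, with 3 exons that overlap no other annotated gene. It had 180, 168 and 187 counts in vector replicates 1, 2 and 3, or 9.97, 8.16 and 8.75 CPM. In Bhlhe22 replicates 1, 2 and 3 it had 504, 596 and 851 counts, or 33.1, 30.8 and 33.9 CPM. All 3 Bhlhe22 libraries stood far above the highest vector library, and the values within each group were close to each other. The means were 8.96 ± 0.926 and 32.6 ± 1.62 CPM (SD, n = 3), with a log2 fold change of 1.86 (SE 0.11, 95% interval 1.61 to 2.12, edgeR adjusted p = 1.3e-04). Among the genes called higher in these cells, 107 had a log2 fold change at least as large, Snai2 included.

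Snai1, which encodes SNAIL, the closest relative of SLUG in this list, did not pass the test. It lies at 167538195 to 167542814 of chromosome 2, plus strand. It had 25.5, 22.3 and 23.9 CPM in vector replicates 1, 2 and 3 and 18.7, 22.9 and 23.7 CPM in the Bhlhe22 replicates. The 2 groups overlapped, and Bhlhe22 replicate 1 was the lowest of the 6 libraries. The log2 fold change was -0.13 (SE 0.12, 95% interval -0.41 to 0.14, edgeR adjusted p = 0.47). Snai3, a family member known mainly from blood cells and skeletal muscle, was near the detection limit, with 13 to 31 counts in vector and 25 to 36 in Bhlhe22 libraries. Its log2 fold change of 0.34 had a 95% interval from -0.48 to 1.16 (edgeR adjusted p = 0.55), so that its upper bound was 2.24-fold at this depth.

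Snai2 took a larger share of the summed SNAIL family level in every Bhlhe22 library than in any vector library. On the FPKM scale, which the authors scaled by gene length and library, Snai1 stood at 15.8, 13.9 and 14.9 in vector replicates 1, 2 and 3 and Snai2 at 4.96, 4.07 and 4.36. In the Bhlhe22 replicates Snai1 stood at 11.4, 14.0 and 14.6 FPKM and Snai2 at 16.1, 15.1 and 16.8. Snai2 was thus below Snai1 in all 3 vector libraries and above it in all 3 Bhlhe22 libraries. The ratio of Snai2 to Snai1 within a library was 0.313, 0.293 and 0.294 in vector and 1.42, 1.08 and 1.15 in Bhlhe22 cells, a 4.02-fold difference (exact two-sided permutation p = 0.1, the smallest that 3 against 3 allows, and 0.15 after Benjamini-Hochberg adjustment over the 3 ratios computed). Snai2 made up 21.8% to 22.7% of the summed family level in vector and 50.2% to 56.6% in Bhlhe22 cells. The sum itself was 18.3 to 21.9 FPKM in vector and 28.5 to 32.2 FPKM in Bhlhe22 cells. The separation of this ratio and of this share was fixed in advance. Snai2 had been called higher without overlap, and Snai1 stayed between 11.4 and 15.8 FPKM over all libraries. This p-value is therefore no further support. These ratios were chosen after the values were seen.

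**Figure D2:**
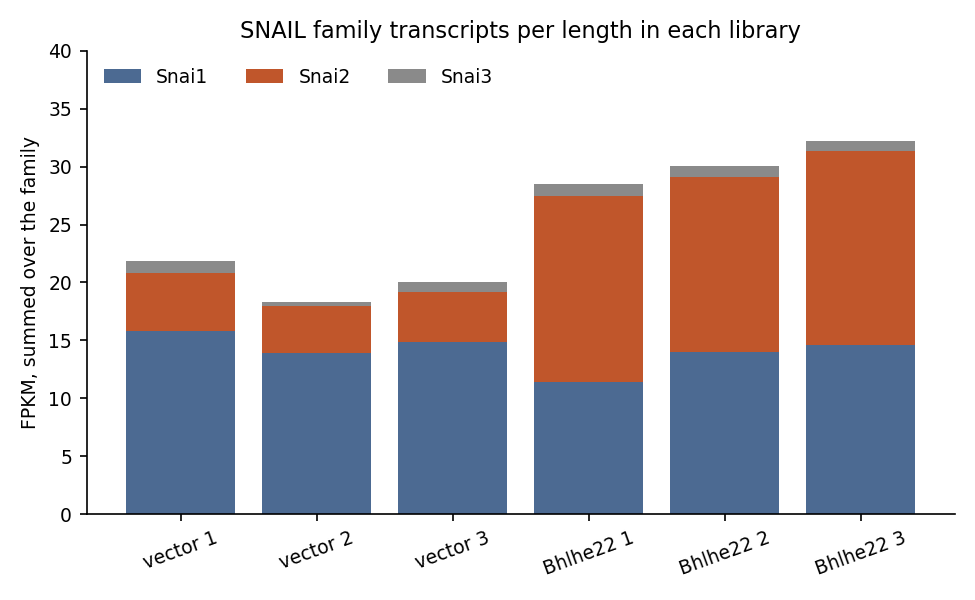
Stacked FPKM of Snai1, Snai2 and Snai3 in each of the 6 libraries, with 1 bar for each library and the bar height as the family sum. The Snai2 part grows from 21.8% to 22.7% of the bar in vector libraries to 50.2% to 56.6% in Bhlhe22 libraries, and the Snai1 part spans 11.4 to 15.8 FPKM over all 6.

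Neither ZEB gene passed the test. Zeb1, the ZEB factor that stands against Grhl2, had 72.2, 79.9 and 46.5 CPM in vector replicates 1, 2 and 3 and 51.2, 60.1 and 60.1 CPM in the Bhlhe22 replicates. Vector replicate 3 was the lowest of all 6 libraries, and the other 2 vector libraries were above every Bhlhe22 library. The log2 fold change of Zeb1 was -0.21 (SE 0.19, 95% interval -0.67 to 0.25, edgeR adjusted p = 0.50), and without vector replicate 3 it was -0.41 (edgeR adjusted p = 0.076). Zeb2, which encodes the SMAD-interacting ZEB factor, was the steadiest of the 9 tested genes between replicates. It lies at 44983632 to 45117395 of chromosome 2, minus strand. It had 57.2, 61.5 and 61.7 CPM in vector and 55.2, 65.7 and 63.5 CPM in Bhlhe22 cells, and the groups overlapped. Its log2 fold change was 0.03 (SE 0.09, 95% interval -0.18 to 0.25, edgeR adjusted p = 0.85).

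Twist1 was the factor with the highest level per length in both groups and did not pass the test. It lies at 33957671 to 33959829 of chromosome 12, plus strand. It had 72.1, 64.4 and 74.1 CPM in vector and 79.3, 84.3 and 72.3 CPM in Bhlhe22 cells. One Bhlhe22 library lay inside the vector range and the other 2 lay above it. The log2 fold change was 0.16 (SE 0.09, 95% interval -0.05 to 0.38, edgeR adjusted p = 0.26).

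Twist2, the close relative of Twist1, varied more between replicates than between groups. It lies at 91801461 to 91848028 of chromosome 1, plus strand. It had 91.2, 48.8 and 54.0 CPM in vector replicates 1, 2 and 3 and 59.7, 51.4 and 88.5 CPM in the Bhlhe22 replicates. Vector replicate 1 and Bhlhe22 replicate 3 were high, and the other 4 libraries lay between 48.8 and 59.7 CPM. The log2 fold change was 0.04 (SE 0.29, 95% interval -0.64 to 0.73, edgeR adjusted p = 0.94), and the within-group SD of log2 CPM, 0.45, was larger than that of 89.6% of the genes tested. Twist2 shares 46.5% of its exon length with Gm29100, an antisense gene at 91798528 to 91802937 of chromosome 1. Gm29100 had 797, 138 and 109 counts in vector replicates 1, 2 and 3 and 148, 150 and 1193 counts in the Bhlhe22 replicates, so the same 2 libraries were high for both genes. With the counts of Gm29100 taken off, Twist2 had 47.0, 42.1 and 48.9 CPM in vector and 49.9, 43.6 and 41.0 CPM in Bhlhe22 cells. No library then stood apart, and the log2 fold change was -0.04 (SE 0.10, 95% interval -0.28 to 0.21, edgeR adjusted p = 0.85). The sources used here do not say whether counting used the strand, so reads of the 2 genes cannot be told apart where they overlap. The subtraction takes off every Gm29100 count, as if each had also been counted for Twist2, although part of Gm29100 lies outside Twist2. Whether that assumption holds was not tested, and the subtraction was chosen after the values were seen.

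**Figure D3:**
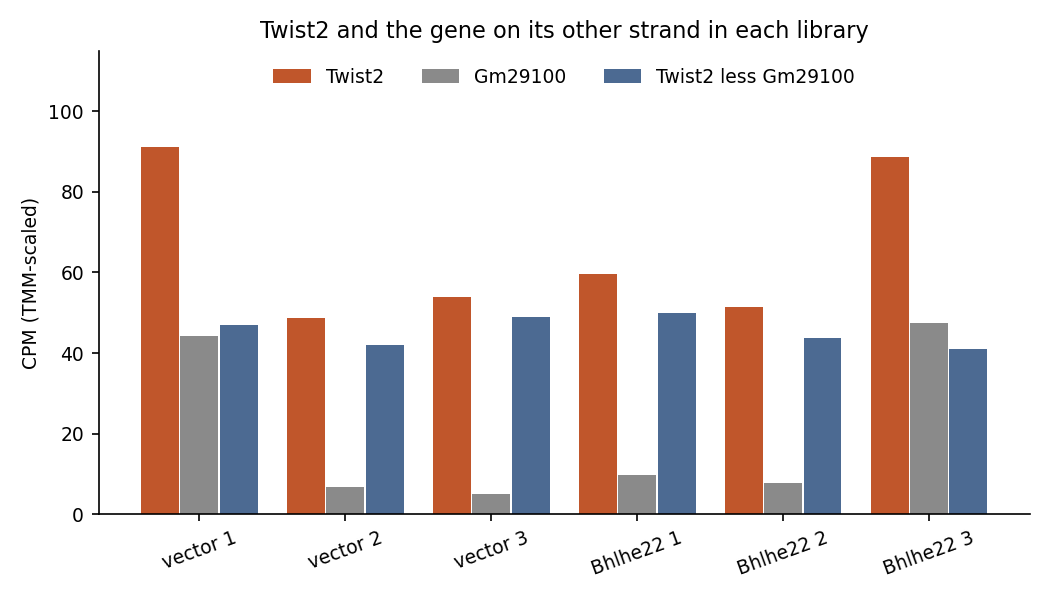
CPM of Twist2, of Gm29100 and of their difference in each library, as bars from 0. Twist2 and Gm29100 are both high in vector replicate 1 and Bhlhe22 replicate 3, and the difference spans 41.0 to 49.9 CPM over the 6 libraries.

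Prrx1, a paired-type homeobox factor of mesenchyme, was expressed at a low level in both groups. It lies at 163245119 to 163313710 of chromosome 1, minus strand. It had 4.65, 6.80 and 4.82 CPM in vector and 5.12, 5.53 and 7.53 CPM in Bhlhe22 cells. The ranges overlapped, and the log2 fold change was 0.17 (SE 0.22, 95% interval -0.34 to 0.67, edgeR adjusted p = 0.64).

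Grhl2 (ENSMUSG00000022286), a grainyhead factor that activates Cdh1 and claudin genes, was the epithelial factor that could be tested, and it fell. It is a plus-strand gene at 37233036 to 37363569 of chromosome 15. It had 332, 326 and 329 counts in vector replicates 1, 2 and 3 and 171, 213 and 234 counts in the Bhlhe22 replicates. In CPM these were 18.4, 15.8 and 15.4 in vector and 11.2, 11.001 and 9.32 in Bhlhe22 cells, so the lowest vector library was above the highest Bhlhe22 library. The means were 16.5 ± 1.62 and 10.5 ± 1.04 CPM (SD, n = 3), with a log2 fold change of -0.66 (SE 0.12, 95% interval -0.94 to -0.37, edgeR adjusted p = 0.011). Among the genes called lower, 552 had a log2 fold change of at least this size, Grhl2 included. An antisense gene with 0 counts in all libraries covers 1.96% of its exon length. Ovol1, a zinc finger repressor of mesenchymal genes, had 1 count in vector replicate 3 and 0 in the other 5 libraries. A count of 0 allows up to 3 counts, or between 0.1195 and 0.1971 CPM by library, for counting error only.

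**Figure D4:**
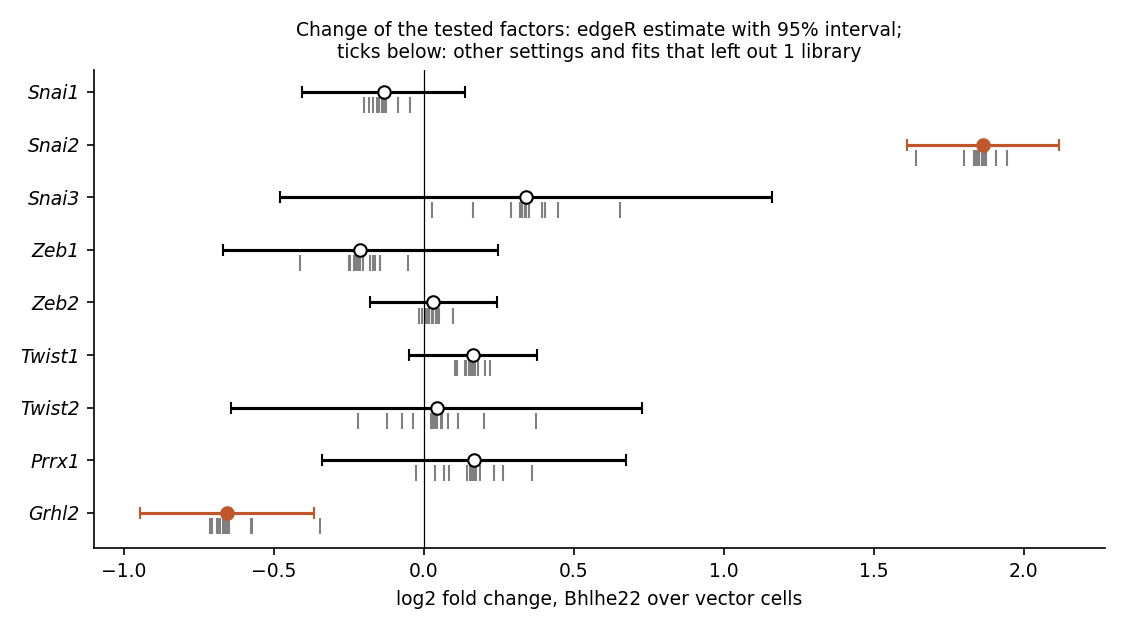
Log2 fold change, Bhlhe22 over vector cells, of the 9 tested factors, with the edgeR estimate as a circle (filled where called) and its 95% interval as a line. Grey ticks are the estimates of the other settings and of the fits that left out 1 library. The intervals of Snai2, from 1.61 to 2.12, and Grhl2, from -0.94 to -0.37, lie away from 0, and those of the other 7 cross it.

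The ratio of Zeb1 to Grhl2 on the FPKM scale was 2.92, 3.75 and 2.24 in vector and 3.38, 4.06 and 4.79 in Bhlhe22 cells. These ranges overlapped (exact two-sided permutation p = 0.2, adjusted p = 0.2). The ratio of Snai2 to Grhl2 was 3.34, 3.17 and 3.50 in vector and 18.1, 17.2 and 22.4 in Bhlhe22 cells, where the ranges did not overlap (exact two-sided permutation p = 0.1, adjusted p = 0.15). That separation was fixed in advance, since Snai2 was called higher and Grhl2 lower without overlap, so this p-value is no further support. Both ratios were chosen after the values were seen.

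Ordered by mean FPKM, the factors in vector cells ran from Twist1 (43.4) through Twist2 (16.9), Snai1 (14.9), Snai2 (4.46), Zeb1 (3.98), Zeb2 (1.76), Grhl2 (1.34), Snai3 (0.754) and Prrx1 (0.342) to Ovol1. The ranges of Twist2 and Snai1, of Snai2 and Zeb1, and of Snai3 and Prrx1 overlapped, so those neighbours are not separated. In Bhlhe22 cells Snai2 (16.0 FPKM) came after Twist2 (17.1), whose range it overlapped, and before Snai1 (13.3), whose range it did not. Grhl2 (0.838 FPKM) then lay below Snai3 (0.939), with overlapping ranges. The length behind these FPKM equals the summed length of all distinct annotated exons for 9 of the 10 genes, so a gene with many overlapping exon models is divided by more than 1 transcript holds. Per kilobase of the longest coding transcript, Zeb1 stood at 11.5 and Zeb2 at 6.63 in vector cells, above Snai2, which has 1 such length and stays at 4.46.

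By the correlation of log2 CPM over the 6 libraries, the genes most like Snai2 were Swap70 (r = 0.999, log2 fold change 0.41), Rbm45 (r = 0.999, 0.38) and Qpct (r = 0.999, 0.82). Swap70 is an actin-binding exchange factor, Rbm45 an RNA-binding protein and Qpct a glutaminyl cyclase. Those most like Grhl2 were the ciliary transport gene Ift27 (r = 0.998, log2 fold change -0.55), the serine protease gene Prss23 (r = 0.998, -0.85) and Gm15720 (r = 0.996, -0.98), of which Gm15720 did not pass the test (edgeR adjusted p = 0.052). The 6 points are the same libraries as in the test. Both factors separate the 2 groups, and the genes named are the highest correlations among all genes tested. Some r near 1 was thus bound to be found, and shared control was not tested.

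Epithelial junction genes, among them known targets of these factors, moved both ways. Of 34 epithelial junction and marker genes, 18 passed the filter, and 2 rose, 4 fell and 12 missed the threshold (33.3% called beside 19.6% of all genes); the median log2 fold change was -0.05. Without Bhlhe22 replicate 1, 4 rose and 6 fell. Cdh1 was almost silent in both groups, with 2, 6 and 3 counts in vector and 0, 1 and 5 in Bhlhe22 cells, and failed the filter. Ocln, the gene of the tight junction protein occludin, fell from 4.90 ± 0.696 to 2.14 ± 0.321 CPM, a log2 fold change of -1.18 with an SE of 0.19 (adjusted p = 0.0055 by edgeR). The simple keratin gene Krt8 had a log2 fold change of -0.47. Cgn, the gene of the tight junction protein cingulin, fell on 18, 20 and 18 counts against 2, 3 and 12 (-1.73), and was named after its value was seen. Cgn passed the filter only through the vector libraries, where it was high. Its call is thus no independent support, though it is counted in the share above. F11r, which encodes the junction adhesion molecule JAM-A, rose from 77.7 ± 3.34 to 107 ± 7.81 CPM (0.46), and Krt19 had a log2 fold change of 0.40. Epcam, the epithelial adhesion molecule, stood at 3.99 ± 0.515 and 3.99 ± 0.628 CPM. In 6 further fits, each library was left out once. Ocln, Krt8 and F11r kept their calls in all 6 leave-one-out fits, Krt19 in 3 (not without any 1 vector replicate) and Cgn in 2 (those without Bhlhe22 replicate 1 or 3), where its log2 fold change was -2.64 without Bhlhe22 replicate 3.

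SNAIL and ZEB proteins are known to bind the E-box CACCTG, and the same box reads CAGGTG on the other strand. In the 250 bases before RefSeq start sites in GRCm38.p6, this box was found, on either strand, in 15 of the 23 junction and marker genes that have a promoter in the table, in 0 of 21 mesenchymal marker genes and in 19.4% of all 27025 genes there. Promoters were matched for 5 of the 10 factors (Snai1, Twist1, Twist2, Zeb2 and Prrx1), of which Snai1 holds the box. The sequences are shown for Snai1, for the called junction genes with the box and for Epcam, with the box in capitals, 5′ to 3′ on the strand of the gene.
Snai1 (chr2:167537945-167538194, plus strand): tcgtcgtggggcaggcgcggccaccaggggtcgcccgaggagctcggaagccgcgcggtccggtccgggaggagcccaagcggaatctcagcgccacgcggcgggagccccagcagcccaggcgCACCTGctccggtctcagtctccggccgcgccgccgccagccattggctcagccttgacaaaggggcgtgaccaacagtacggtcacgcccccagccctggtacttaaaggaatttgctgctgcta
Ocln (chr13:100552499-100552748, minus strand): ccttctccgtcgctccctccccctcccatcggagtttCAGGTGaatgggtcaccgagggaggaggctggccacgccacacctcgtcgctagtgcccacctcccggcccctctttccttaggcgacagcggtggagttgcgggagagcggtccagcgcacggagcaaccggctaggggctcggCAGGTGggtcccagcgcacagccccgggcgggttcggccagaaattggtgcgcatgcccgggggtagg
Krt8 (chr15:102004343-102004592, minus strand): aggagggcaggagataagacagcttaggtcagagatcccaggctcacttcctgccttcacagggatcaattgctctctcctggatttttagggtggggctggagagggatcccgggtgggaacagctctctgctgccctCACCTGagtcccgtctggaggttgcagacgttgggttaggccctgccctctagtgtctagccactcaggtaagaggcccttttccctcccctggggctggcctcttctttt
F11r (chr1:171437311-171437560, plus strand): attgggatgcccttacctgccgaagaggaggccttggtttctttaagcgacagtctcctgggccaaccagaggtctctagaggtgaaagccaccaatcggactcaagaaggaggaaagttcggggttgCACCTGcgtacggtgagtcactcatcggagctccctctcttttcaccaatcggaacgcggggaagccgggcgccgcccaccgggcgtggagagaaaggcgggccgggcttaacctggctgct
Epcam (chr17:87635729-87635978, plus strand): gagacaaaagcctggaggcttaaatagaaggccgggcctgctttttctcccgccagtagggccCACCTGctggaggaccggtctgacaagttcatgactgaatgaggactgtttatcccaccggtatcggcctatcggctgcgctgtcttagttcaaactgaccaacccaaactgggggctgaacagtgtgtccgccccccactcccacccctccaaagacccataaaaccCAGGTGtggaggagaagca
The box starts at position -126 in Snai1, -213 and -68 in the Ocln window shown (a second Ocln window holds none), -111 in Krt8, -122 in F11r and -187 and -19 in Epcam, counted from the start site. Genes with the box went both ways, since of the 15, 2 fell, 1 rose, 4 did not pass the test and 8 failed the filter. Of the 8 junction genes without it, 1 fell (Cgn, which passed the filter only through the vector libraries), 5 did not pass the test and 2 failed the filter. Of all genes tested, 19.6% were called, 10.4% higher and 9.28% lower. Calls over all genes with the box were not counted, so whether the box goes with a call was not tested. A match is a description of these letters and not of binding.

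Of 34 mesenchymal marker genes 27 were tested, and 1 rose, 6 fell and 20 missed the threshold; the median log2 fold change was -0.11. The share called was 25.9%, beside 19.6% of all genes tested (10.4% higher and 9.28% lower). Without Bhlhe22 replicate 1, 7 rose and 9 fell. Vim, the intermediate filament vimentin, had 1606, 1716 and 1653 CPM in vector and 1422, 1248 and 1295 CPM in Bhlhe22 cells. Every Bhlhe22 library was below every vector library (log2 fold change -0.33 with an SE of 0.08, adjusted p = 0.023 by edgeR). The matrix gene Col1a2 (-2.12) fell on few counts, 9, 12 and 11 against 2, 2 and 3. Col1a2 passed the filter only through the vector libraries, where it was high. Its call is thus no independent support, though it is counted in the share above. The calcium-binding S100a4 (-1.31) overlaps another gene of its own strand over 51.7% of its exons and is less certain. The protease gene Mmp3 had a log2 fold change of -1.03, on 27, 31 and 36 counts against 9, 17 and 20. The actin-binding tropomyosin Tpm1 had a log2 fold change of -0.35 and the lysyl oxidase Loxl2, named after its value was seen, of -0.50. Pdgfrb, a growth factor receptor of mesenchyme, rose from 41.5 ± 0.846 to 59.8 ± 7.61 CPM (0.53). Cdh2, which encodes N-cadherin, had 82.6, 80.6 and 77.3 CPM in vector and 53.1, 66.4 and 68.6 CPM in Bhlhe22 cells without passing the test (-0.35, edgeR adjusted p = 0.060), and was called without Bhlhe22 replicate 1 (-0.25, edgeR adjusted p = 0.011), by DESeq2 (adjusted p = 0.028) and with upper quartile scaling (edgeR adjusted p = 0.046). The fibronectin gene Fn1 stood at 304 ± 31.8 and 399 ± 96.4 CPM (0.39, edgeR adjusted p = 0.18), and was called without Bhlhe22 replicate 1 (0.57, edgeR adjusted p = 0.0042). Of the 7 called markers, Vim, Tpm1 and Mmp3 kept their calls in 1 of the 6 leave-one-out fits, that without Bhlhe22 replicate 1, and S100a4, Pdgfrb and Loxl2 in 2. Col1a2 passed the filter in 4 of those fits and was called in all 4. Since it passes only where it is high in vector libraries, this is no independent check. It was fitted in 13 of the 16 alternatives and was not called by limma on log2 FPKM (-0.037, limma adjusted p = 0.4).

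Of 25 other EMT and mesenchymal transcription factors 23 were tested, and 3 rose, 2 fell and 18 missed the threshold; the median log2 fold change was -0.03. The share called, 21.7%, is near the 19.6% of all genes tested. When Bhlhe22 replicate 1 was left out, 5 rose and 5 fell. The forkhead gene Foxc2 rose from 34.6 ± 2.03 to 49.6 ± 3.34 CPM, a log2 fold change of 0.52 with an SE of 0.09 (adjusted p = 0.0077 by edgeR). Fosl1, an AP-1 subunit, rose by 0.42 on that scale. Foxq1, another forkhead factor, had 0, 5 and 1 counts in vector and 17, 26 and 23 in Bhlhe22 cells (3.41), and 5.15 without vector replicate 2. Foxq1 passed the filter only through the Bhlhe22 libraries, where it was high. Its call is thus no independent support, though it is counted in the share above. Foxq1 and Fosl1 overlap genes of the opposite strand over 66.1% and 57.2% of their exons, so both are less certain. Id2, an inhibitor of basic helix-loop-helix pairing, fell from 16.9 ± 0.594 to 11.9 ± 0.602 CPM (-0.51), and the chromatin factor gene Hmga2 fell by 0.45 on the log2 scale. Foxc2 and Hmga2 lost their calls without vector replicate 1, Foxq1 without vector replicate 3, and Fosl1 and Id2 without vector replicate 1 or 2. The E protein genes Tcf3, Tcf4 and Tcf12, whose products pair with TWIST, did not pass the test, at 128, 74.7 and 193 CPM in vector and 108, 80.2 and 198 CPM in Bhlhe22 cells. Tcf3 was lower in every Bhlhe22 library than in any vector library (log2 fold change -0.24, edgeR adjusted p = 0.068). They were named after their values were seen.

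Of 23 other epithelial transcription factors, 10 passed the filter, and 3 rose, 3 fell and 4 missed the threshold; the median log2 fold change was -0.11. The share called was 60.0%, beside 19.6% of all genes tested, and is over the 10 that passed only. Without Bhlhe22 replicate 1, 4 rose and 4 fell. Klf4, a zinc finger factor of epithelia and stem cells, had 37.0, 38.3 and 40.8 CPM in vector and 78.5, 87.4 and 76.4 CPM in Bhlhe22 cells. All 3 Bhlhe22 libraries stood above the vector range (log2 fold change 1.06 with an SE of 0.09, adjusted p = 4.3e-04 by edgeR), and the call held in all 6 leave-one-out fits. Grhl1, the relative of Grhl2, went the other way from it, with 3, 8 and 8 counts in vector and 17, 19 and 22 in Bhlhe22 cells (log2 fold change 1.62, edgeR adjusted p = 0.019). Grhl1 passed the filter only through the Bhlhe22 libraries, where it was high. Its call is thus no independent support, though it is counted in the share above. Leaving out any 1 vector replicate or Bhlhe22 replicate 2 ended its call (edgeR adjusted p between 0.054 and 0.06). The endoderm factor Foxa2 (-0.80), the intestinal factor Cdx2 (-1.12, on 41, 40 and 31 counts against 10, 18 and 24) and Cebpa (-0.72) fell. Gata3 (0.33), named after its value was seen, rose. Foxa2, Cdx2, Cebpa and Gata3 kept their calls in 3, 2, 2 and 1 of those 6 fits. Ovol2 and the splicing factor gene Esrp1, both named after their values were seen, had 0 counts in all 6 libraries. The limit on such zeros given with Itgb1 above applies to them.

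All 26 corepressors that SNAIL and ZEB proteins recruit were tested, and 0 rose, 6 fell and 20 missed the threshold; the median log2 fold change was -0.12. The share called, 23.1%, is near the 19.6% of all genes tested, of which 10.4% rose and 9.28% fell. The fit without Bhlhe22 replicate 1 called 1 higher and 10 lower. By DESeq2, 0 rose and 7 fell, and by limma-voom 0 rose and 6 fell. At an unadjusted edgeR p under 0.05, 0 were higher and 9 lower. Counts higher and lower at that threshold were 3 and 10 among mesenchymal markers and 3 and 8 among junction genes. They were 4 and 4 among other EMT factors and 3 and 4 among other epithelial factors. Turnover genes had 3 and 4, and inducers 6 and 8. The share of all genes at that threshold is not given here, so these counts have no background. The histone methyltransferase Suv39h1 fell from 92.1 ± 0.683 to 52.6 ± 2.37 CPM, a log2 fold change of -0.81 with an SE of 0.07 (adjusted p = 5.2e-04 by edgeR). The DNA methyltransferase Dnmt1 had a log2 fold change of -0.79, the scaffold Sin3a of -0.49, the remodellers Smarca4 of -0.45 and Chd4 of -0.34, and the deacetylase Hdac1, named after its value was seen, of -0.26. Suv39h1, Dnmt1 and Sin3a kept their calls in all 6 leave-one-out fits, Smarca4 in 4, Chd4 in 2 and Hdac1 in 1.

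Of 32 genes for the stability and turnover of these proteins, 29 were tested, and 2 rose, 1 fell and 26 missed the threshold; the median log2 fold change was 0.05. The share called was 10.3%, below the 19.6% of all genes tested. Without Bhlhe22 replicate 1, 5 rose and 2 fell. The O-GlcNAcase gene Oga rose from 133 ± 8.18 to 176 ± 8.33 CPM (0.40), and Btrc, the ubiquitin ligase adaptor that recognises phosphorylated SNAIL, from 34.2 ± 1.19 to 42.5 ± 1.60 CPM (0.31, edgeR adjusted p = 0.029). The ligase adaptor Fbxl14 had a log2 fold change of -0.38. Oga kept its call in 4 of the 6 leave-one-out fits, and Btrc and Fbxl14 in 1, that without Bhlhe22 replicate 1.

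Of 33 upstream inducers 31 were tested, and 4 rose, 3 fell and 24 missed the threshold; the median log2 fold change was -0.11. The share called, 22.6%, is near the 19.6% of all genes tested. In the fit without Bhlhe22 replicate 1, 8 rose and 6 fell. The immediate early gene Egr1 had a log2 fold change of 0.42, the inhibitory SMAD gene Smad7 of 0.36, the NOTCH ligand gene Jag1 of 0.41 and the NF-kB subunit gene Rela of 0.29. The ligand gene Tgfb3 (-0.37) and the receptor genes Met (-0.46) and Tgfbr2 (-0.36) fell. Rela and Tgfbr2 were named after their values were seen. Egr1, Smad7, Jag1, Rela and Tgfbr2 kept their calls in 1 of the 6 leave-one-out fits, that without Bhlhe22 replicate 1, and Tgfb3 and Met in 2.

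**Figure D5:**
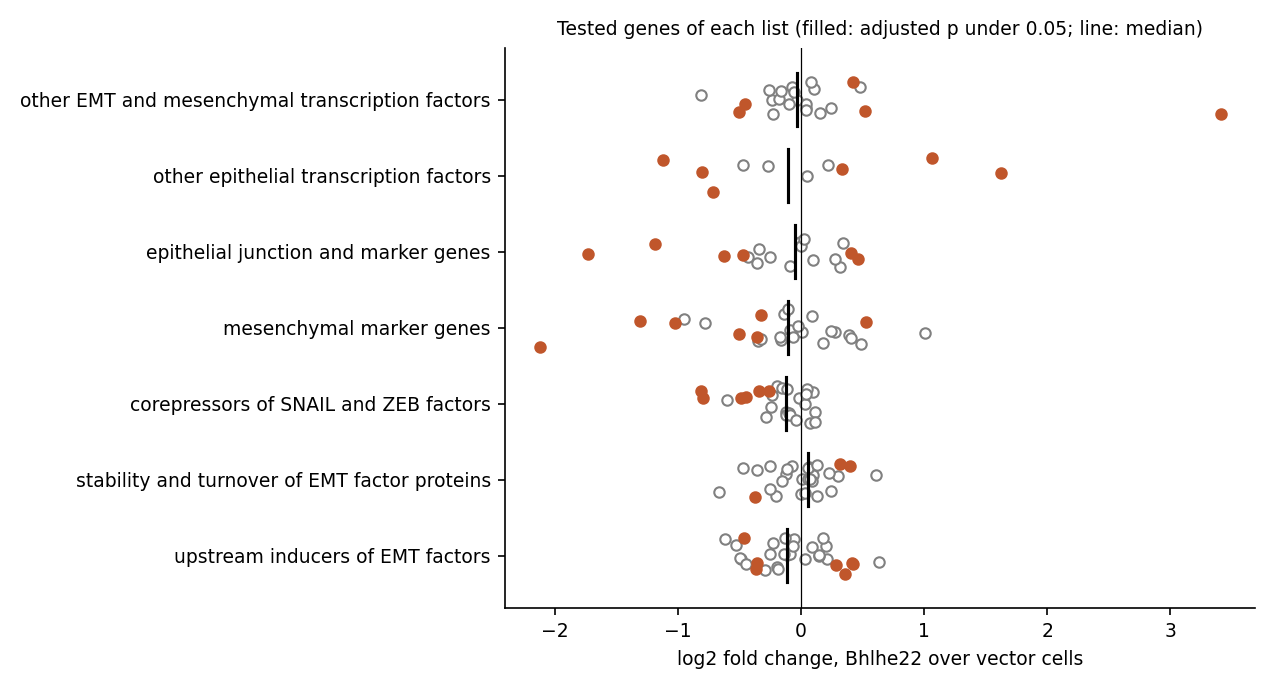
Log2 fold change, Bhlhe22 over vector cells, of the tested genes of the 7 lists, with 1 circle for each gene (filled where the edgeR adjusted p is under 0.05) and a line at the list's median. The medians lie between -0.12 and 0.05, and called genes stand on both sides of 0 in all lists but that of the corepressors, where 6 fell and 0 rose.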

How the data were processed

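The authors deposited raw counts per gene and FPKM for 6 samples. Per the submitters' processing notes, CASAVA 1.8, HISAT2 2.1.0, StringTie 1.3.4b and edgeR were used with GRCm38. The sources used here do not give the step of each tool, the annotation release or whether counting used strand. In the deposited FPKM, count and FPKM imply 1 length per gene, which was compared with the exons of GENCODE M21; exon overlaps also came from it. Promoter sequences came from RefSeq (GRCm38.p6).

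Counts were fitted with edgeR 4.0.16 in R 4.3.3 over all genes (TMM, filterByExpr with minimum count 10 and minimum total 15, robust quasi-likelihood test, Benjamini-Hochberg at 0.05), without covariates. The same method was also run on simulated counts, drawn from the mean levels and dispersions of these data. FPKM served for levels between genes. Where a symbol had several identifiers (114 symbols), that with most counts was used. Alternatives used DESeq2 1.42.0, limma 3.58.1, other scalings and filters, a replicate block, log2 FPKM with a pseudocount of 1, and fits without each library.

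The 10 genes and the lists were chosen with earlier results of these data known. The list symbol Skp1 matched no row. Named genes were all 10 factors, Bhlhe22, Cdh1, Epcam, Vim, Cdh2 and Fn1, up to 5 called genes with the smallest adjusted p per list, and the 3 genes most correlated with each called factor. Some genes that the rule names are counted in their lists but not reported here.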

Additional observations from a re-analysis of the deposited data

How the results depend on the processing

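Snai2 and Grhl2 kept their direction and their call under all 16 alternatives, with log2 fold changes of 1.64 to 1.94 and -0.71 to -0.35. The call of Grhl2 came close to the threshold, with an edgeR adjusted p of up to 0.049 in the leave-one-out fits. Those fits gave Grhl2 -0.71 to -0.57. The ends at 1.64 and -0.35 came from log2 FPKM with a pseudocount of 1, where Grhl2 had mean levels of 1.34 FPKM in vector and 0.838 FPKM in Bhlhe22 cells. The labels do not say whether samples of the same number were paired. Correlations of same-numbered deviations were 0.029, 0.021 and 0.016, inside the range of those with unlike numbers, from -0.078 to 0.063. With 3 samples in each group, these values cannot settle whether samples were paired. With a replicate block Snai2 had 1.87 and Grhl2 -0.65, and 2079 genes were called in place of 2881. The block left 1 higher and 1 lower among the other epithelial factors, 1 and 0 among the turnover genes and 1 and 1 among the inducers. With no filter the turnover genes had 1 higher and 0 lower. DESeq2 called 2 turnover genes and 5 inducers lower, and limma on log2 FPKM called 1 turnover gene and 2 inducers higher. With the longest coding transcript as length, levels in vector and Bhlhe22 cells were 11.5 and 9.76 for Zeb1, 6.63 and 6.68 for Zeb2, 25.8 and 26.1 for Twist2, 0.837 and 0.921 for Prrx1, and 3.37 and 2.11 for Grhl2. Twist2 reversed to -0.037 with Gm29100 taken off. Fits that left out 1 library called 1348 to 4682 genes (715 to 2345 higher and 633 to 2337 lower), the most without Bhlhe22 replicate 1. In those fits, higher and lower calls ranged from 2 to 5 and 0 to 5 among other EMT factors, 1 to 4 and 0 to 4 among other epithelial factors, 1 to 4 and 3 to 6 among junction genes, 0 to 7 and 0 to 9 among mesenchymal markers, 0 to 1 and 3 to 10 among corepressors, 0 to 5 and 0 to 2 among turnover genes, and 0 to 8 and 0 to 6 among inducers. Directions reversed in them for Zeb2 (-0.016 to 0.10), Twist2 (-0.22 to 0.37), Prrx1 (-0.026 to 0.36) and Epcam (-0.14 to 0.094). The cause of these moves was not tested. Depth limits Snai3, Ovol1, Cdh1, Foxq1, Grhl1, Cgn, Col1a2, Mmp3 and Cdx2, which rest on few counts. Of these, Foxq1 and Grhl1 passed the filter only through the Bhlhe22 libraries, and Cgn and Col1a2 only through the vector libraries.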
